A study of Mus musculus with 12 samples.

Results

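Autophagy and lysosome control genes were followed here through oocytes of dormant and growing follicles. The 40 genes were chosen by name, from the initiation, nucleation, membrane, conjugation, receptor and lysosome steps of the pathway, and all 40 were matched by Ensembl identifier among the 55401 genes of the count table. The RNA came from oocytes of primordial and of primary follicles, 3 libraries for each stage and treatment, 12 in all. Ovaries of F1 females (C57Bl/6j x CBA/J) aged 7 to 8 days had been cultured for 5 days with DMSO as the control or with dorsomorphin (DM). About 200 oocytes per library were cut from fixed sections by laser capture microdissection, and their RNA was amplified. The library method is described both as TruSeq RNA Access, which captures exons, and as Smart-seq II, and which of them made these libraries was not settled here. The sample labels call the control sham and the material in vivo, and the DM concentration used for the sequenced ovaries was not given in the sources used here. The paper calls the 3 samples of each group biologically independent. Nothing in the labels ties a library to an animal, so p-values measure the spread between libraries, which may be technical.

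Autophagy is the route by which a cell encloses its own cytoplasm in a double membrane and delivers it to lysosomes for digestion. AMPK, the kinase that senses a low energy state and that DM inhibits, phosphorylates ULK1 and thereby starts the pathway. Beclin 1 and the lipid kinase VPS34 then mark the growing membrane, a ubiquitin-like conjugation system attaches proteins of the LC3 and GABARAP family to it, receptors such as p62 bring in cargo, and RAB7 and the lysosomal proteins complete the fusion and digestion. In the ovary, autophagy is known for its part in keeping the pool of primordial follicle oocytes alive around birth.

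The libraries held from 14034586 to 42639326 counts, and from 4206 to 10687 genes had over 3 counts. A count of 0 allows up to 3 counts, which is 0.0704 to 0.214 CPM (counts scaled to the library's total) in these libraries, and a gene with over 3 counts is called detected below. These limits cover counting error only, since amplified reads without molecular identifiers are not independent molecules. The fixed oocyte markers were checked against the label: of 15, 11 to 13 were detected in the primordial controls, 3 to 10 in primordial DM, 9 to 13 in the primary controls and 6 to 10 in primary DM libraries. *Zp3* and *Gdf9*, a zona pellucida protein and an oocyte growth factor, were both at 0 in primordial DM library 3 and in primary DM libraries 1 and 2, where the germ cell helicase *Ddx4* had 50, 13 and 47451 counts and the receptor *Kit* 91, 1514 and 55. Collagens of stromal cells were read in every library, with a summed level of the 9 stroma and theca markers of 1640 to 12500 CPM. The 11 granulosa cell markers summed to 13.1 to 11200 CPM, with 61 to 474295 counts of *Foxl2*, while *Cyp19a1* and *Fshr* were at 0 in all 12 libraries. The 9 leukocyte markers summed to 0 to 617 CPM, with *Adgre1* and *Tyrobp* at 0 in all 12 libraries and up to 9326 counts of *Mrc1* in primordial control library 3. The 7 endothelium and blood markers summed to 0.0661 to 609 CPM, with the 4 haemoglobin genes at 0 in all 12 libraries and up to 21234 counts of *Kdr* in primordial DM library 2. In such bulk samples, fewer cells of a type and less RNA per cell cannot be told apart.

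The autophagy genes were read patchily, and a gene abundant in one library was often missing from the next library of the same group. The number detected was 36, 29 and 28 of 40 in primordial control libraries 1, 2 and 3, and 32, 29 and 21 in the primordial DM libraries. It was 29, 28 and 22 in the primary controls and 22, 23 and 21 in the primary DM libraries, so the controls reached higher than the DM libraries in both stages while their ranges overlapped. Members with over 1000 counts numbered 20, 16 and 10, then 16, 9 and 8 in the primordial groups, and 15, 8 and 2, then 3, 3 and 3 in the primary groups. The members together took 0.367 to 0.585% of a library's counts in primordial controls, 0.289 to 0.505% in primordial DM, 0.173 to 0.349% in primary controls and 0.027 to 0.179% in primary DM libraries.

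**Figure D1:**
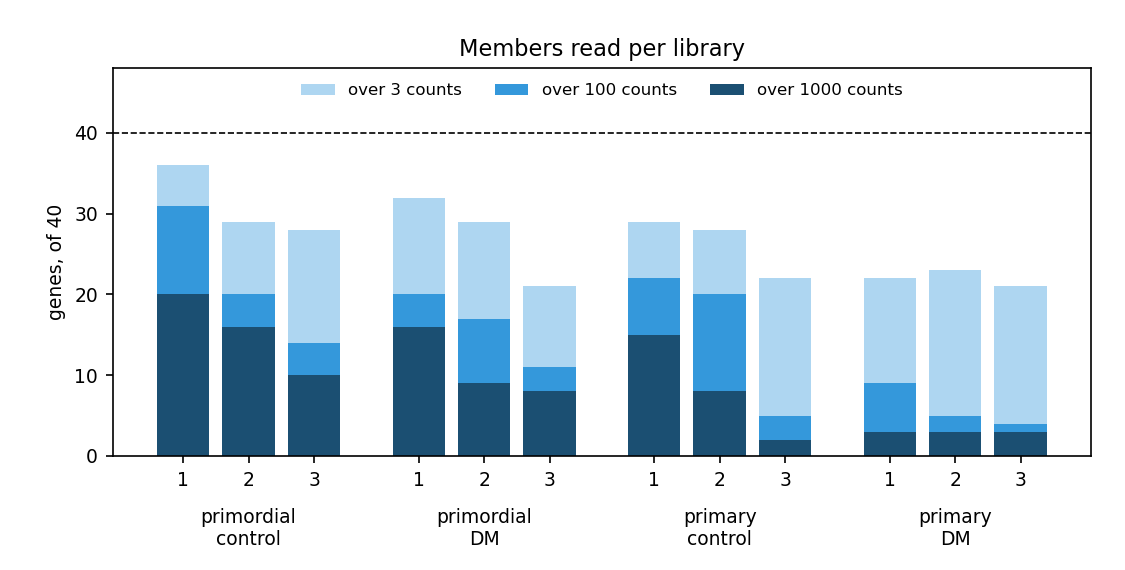
Number of the 40 autophagy and lysosome genes (vertical axis) with over 3, over 100 and over 1000 read counts in each of the 12 libraries, numbered by replicate within the 4 groups; bars of the 3 thresholds are drawn over each other from 0 and the dashed line marks 40. Primordial control library 1 had the most members at each threshold (36, 31 and 20), and the primary DM libraries had 3 members each over 1000 counts.

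Of the 40 members, 9 (22.5%) were detected in all 12 libraries, where 23.6% of the 8500 genes tested over the 12 libraries were. The 9 were *Pik3r4*, *Ambra1*, *Atg5*, *Atg16l1*, *Gabarap*, *Gabarapl1*, *Lamp1*, *Ctsd* and *Rab7*. All 3 libraries of a group held 24 members in primordial controls (60.0%, against 56.5% of the 8500 genes), 17 in primordial DM (42.5% against 42.1%), 17 in primary controls (42.5% against 37.6%) and 10 in primary DM (25.0% against 32.9%). In 21 members (52.5%) a library with over 1000 counts stood beside a library of the same group with at most 3, as it did for 41.2% of the 8500 genes. The library with a member's highest level held a median of 52.1% of that member's CPM summed over the 12 libraries (22.3 to 99.2%), and 52.3% over the 8500 genes. *Ctsd* was the most evenly read member and *Map1lc3b* the least.

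**Figure D2:**
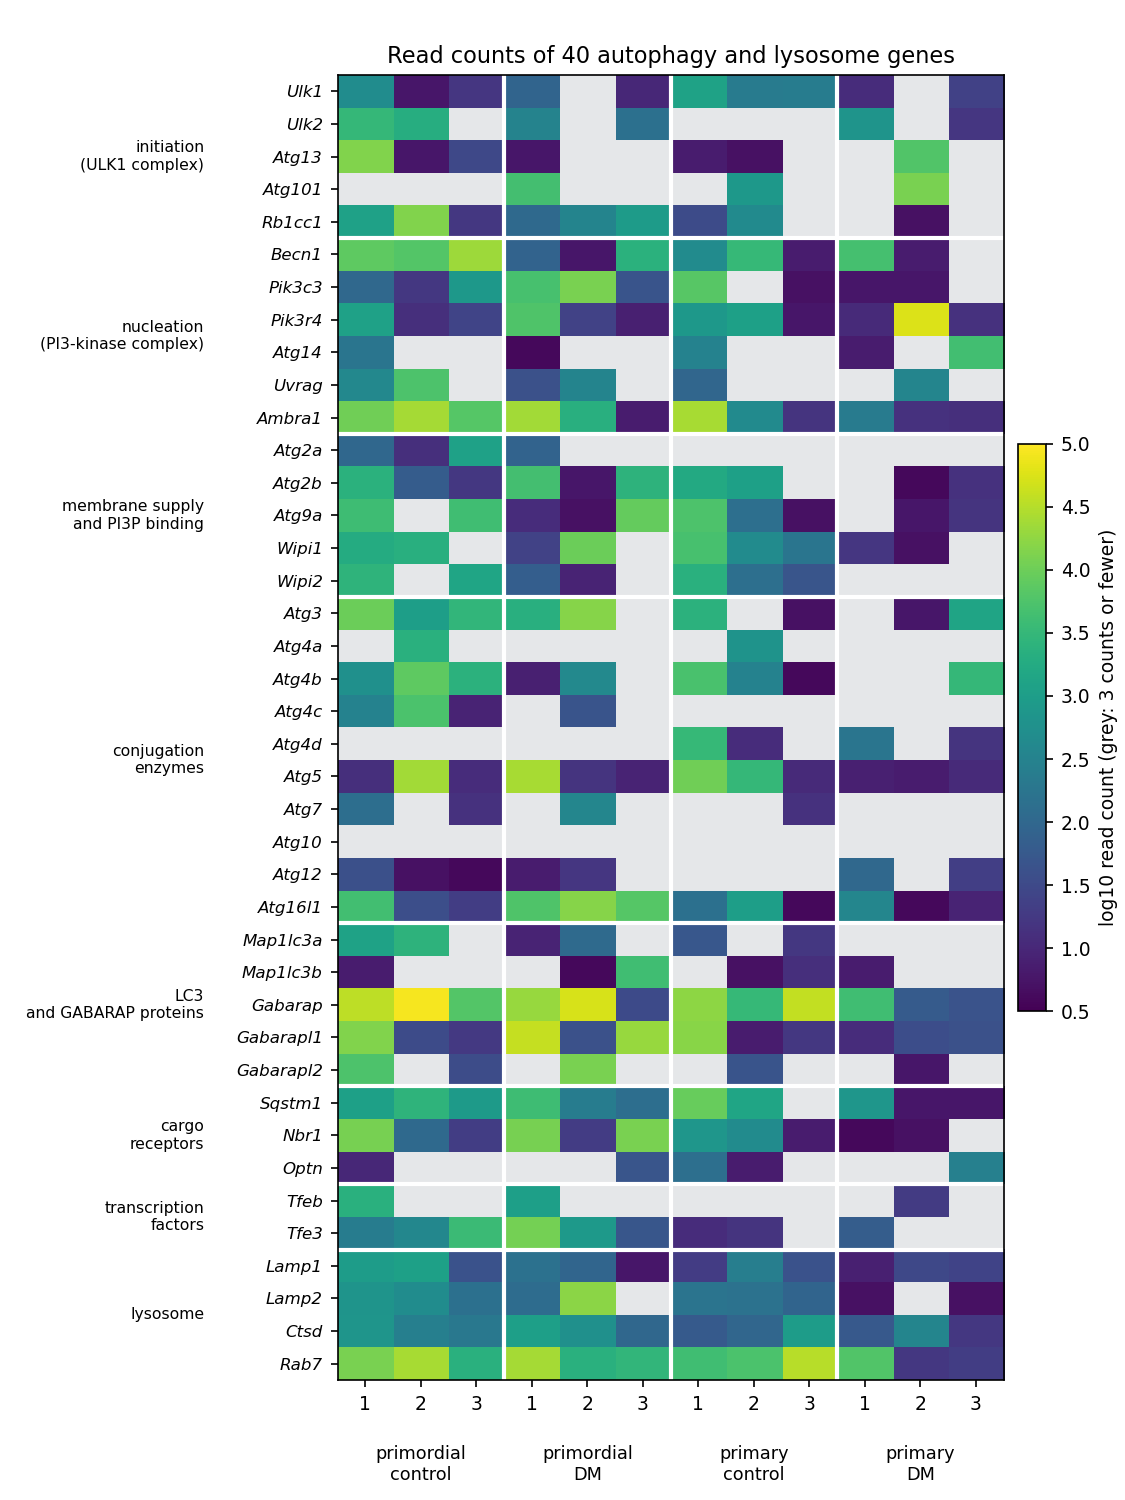
Read counts of the 40 members (rows, grouped by their step in the pathway) in the 12 libraries (columns, numbered by replicate within the 4 groups), as log10 of the count; grey marks 3 counts or fewer. *Gabarap* and *Rab7* are read in every column, *Atg10* is grey in all 12, and 21 of the 40 rows have a group with both a library over 1000 counts and a grey one.

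The initiation genes encode the ULK1 complex, in which the kinases ULK1 and ULK2 bind ATG13, ATG101 and the scaffold FIP200 (*Rb1cc1*). *Ulk1* had 494, 6 and 16 counts in the primordial controls and 90, 0 and 10 with DM, and 1261, 232 and 242 counts in the primary controls and 12, 1 and 23 with DM. The primordial groups overlapped, whereas each primary control library was above every primary DM library. All 4 of *Ulk1*, *Atg13*, *Atg101* and *Rb1cc1* were detected together in 2 of 12 libraries, primordial DM library 1 and primary control library 2. *Atg101*, which stabilises ATG13, had 4454 counts in primordial DM library 1, 803 in primary control library 2 and 12232 in primary DM library 2, and at most 3 in the other 9 libraries.

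The nucleation genes encode the complex that makes the lipid PI3P: beclin 1 (*Becn1*), the lipid kinase VPS34 (*Pik3c3*), its regulatory subunit VPS15 (*Pik3r4*), the targeting subunits ATG14 and UVRAG, and AMBRA1, which binds beclin 1. *Becn1* had 7767, 6248 and 22364 counts in the primordial controls, 84, 6 and 2380 with DM, 469, 3229 and 7 in the primary controls and 4648, 7 and 2 with DM. Its primordial groups did not overlap, its primary groups did, and it shares 3104 exon bases with *Cntd1* on the opposite strand. *Pik3r4* had 1202, 13 and 26 counts in the primordial controls, 5670, 24 and 8 with DM, 801, 1151 and 6 in the primary controls, and 11, 57172 and 14 with DM. Primary DM library 2 alone carried 82.2% of the summed CPM of *Pik3r4*. *Ambra1* had 10536, 24458 and 6492 counts in the primordial controls, 23902, 2175 and 7 with DM, 25552, 449 and 15 in the primary controls, and 234, 14 and 13 with DM. It was over 1000 counts in all 3 primordial controls and under 20 in 1 primordial DM, 1 primary control and 2 primary DM libraries. The 4 subunits of the autophagy-specific complex (*Becn1*, *Pik3c3*, *Pik3r4* and *Atg14*) were detected together in 4 libraries, the first library of each group.

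Genes of membrane supply and PI3P binding encode the lipid transporters ATG2A and ATG2B, the scramblase ATG9A and the PI3P-binding proteins WIPI1 and WIPI2, the latter of which recruits ATG16L1. *Wipi1* had 1843, 2139 and 2 counts in the primordial controls, 24, 9612 and 1 with DM, 4846, 465 and 174 in the primary controls, and 16, 5 and 3 with DM. *Wipi2* had 2624, 1 and 1411 counts in the primordial controls, 69, 9 and 0 with DM, 2238, 139 and 48 in the primary controls, and 1, 0 and 2 with DM. In primary follicles each control library was above every DM library for *Wipi1* and for *Wipi2*. The summed level of the 5 genes was 7.36, 134 and 421 CPM over the primary controls in rising order. Over the primary DM libraries it was 0.352, 0.8 and 0.998 CPM. In primordial follicles it was 59.8 to 444 CPM in controls and 125 to 527 CPM with DM. The summed primary levels of the LC3 and GABARAP genes were apart too (236 to 1250 CPM in controls, 2.49 to 154 with DM). Those of the other steps overlapped, as in initiation (8.0 to 106 CPM in controls, 1.37 to 427 with DM).

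The conjugation enzymes include the protease family ATG4, the E1-like ATG7, the E2-like ATG3 and ATG10, and the complex of ATG12, ATG5 and ATG16L1 that places LC3 on the membrane. *Atg5* had 13, 24187 and 12 counts in the primordial controls, 25780, 15 and 9 with DM, 10637, 3121 and 11 in the primary controls, and 8, 7 and 11 with DM. Each group with a high *Atg5* library also had a library under 20 counts, and primary DM had no high library. *Atg16l1* had 4374, 38 and 21 counts in the primordial controls, 5702, 15358 and 6544 with DM, 146, 1039 and 4 in the primary controls, and 367, 4 and 9 with DM. Its 3 primordial DM libraries were all above the 3 primordial controls in CPM. *Atg4c* had 315, 5416 and 9 counts in the primordial controls, 0, 47 and 0 with DM, and at most 3 in the 6 primary libraries. *Atg10* had at most 3 counts in all 12 libraries, and *Atg7* was detected in 4. The complex of *Atg12*, *Atg5* and *Atg16l1* was detected whole in 7 libraries, all 3 primordial controls among them and 0 primary controls, and *Atg7*, *Atg10* and *Atg3* were never detected together. Among these enzymes *Atg4a* is uncertain, since 51.2% of its 50-base stretches are found in *Atg4a-ps* too.

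Of the ubiquitin-like proteins that are attached to the membrane, *Gabarap* had the highest median level per length over the 12 libraries, and *Map1lc3b*, which encodes the usual autophagosome marker LC3B, was at 13 counts or fewer in all but 1 library. *Gabarap* had 35208, 88328 and 6244 counts in the primordial controls, 20544, 53867 and 32 with DM, 17409, 3257 and 38700 in the primary controls, and 4208, 61 and 44 with DM. In RPKM (CPM divided by the exon length in kilobases, GENCODE vM21), the level of *Gabarap* was 673 ± 554 (SD, n = 3) in primordial controls, 377 ± 425 in primordial DM, 359 ± 283 in primary controls and 28.1 ± 47.5 in primary DM libraries. *Gabarap* was the highest of the 5 family members per length in 10 of 12 libraries, and *Gabarapl1* in the other 2, primordial DM libraries 1 and 3, where its group had 328 ± 284 RPKM. *Gabarapl1* had 13998, 34 and 18 counts in the primordial controls, 39475, 42 and 19952 with DM, 15794, 7 and 17 in the primary controls, and 12, 36 and 42 with DM, and it overlaps the exons of *1700101I11Rik* on the opposite strand. *Map1lc3b* had 7, 1 and 1 counts in the primordial controls, 2, 4 and 4229 with DM, 3, 5 and 13 in the primary controls, and 7, 2 and 2 with DM. Primordial DM library 3 held 99.2% of its summed CPM. *Map1lc3a* and *Gabarapl2* were detected in 6 and 5 libraries.

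**Figure D3:**
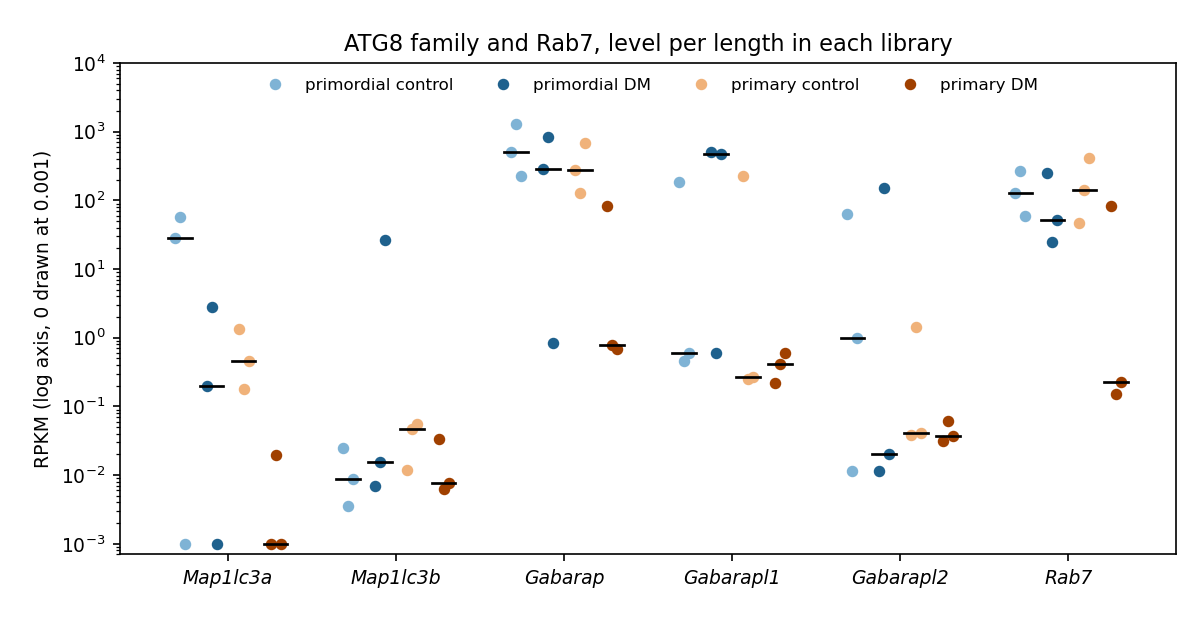
Level per length (RPKM, log axis, 0 drawn at 0.001) of the 5 LC3 and GABARAP genes and of *Rab7* in each of the 12 libraries; points are libraries, coloured by group, and black bars are group medians of 3 libraries. *Gabarap* lies above the other 4 family members in 10 of 12 libraries, *Gabarap* (0.776 and 0.68) and *Rab7* (0.153 and 0.229) are low in primary DM libraries 2 and 3, and *Map1lc3b* has a single high point, at 26.7.

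Cargo receptors tether ubiquitinated cargo to LC3. *Sqstm1*, which encodes p62, had 1133, 2629 and 894 counts in the primordial controls, 4018, 245 and 135 with DM, 8911, 1424 and 2 in the primary controls, and 744, 6 and 6 with DM. It was detected in 11 of 12 libraries, with overlap between DM and control in both stages, and it shares 580 exon bases with *Mrnip* on the opposite strand. *Nbr1*, a related receptor, ranged from 2 to 12256 counts and *Optn*, the optineurin gene, from 0 to 292.

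The transcription factors TFEB and TFE3 switch on lysosomal and autophagy genes, and they bind a palindrome with the core CACGTG. *Tfeb* had 2255, 0 and 0 counts in the primordial controls, 1108, 0 and 0 with DM, 1, 0 and 1 in the primary controls, and 1, 19 and 1 with DM, so it was detected in 3 of 12 libraries. *Tfe3* was detected in 9, with 2 to 11540 counts. The 250 bases before the start of each RefSeq gene (GRCm38.p6) were searched for CACGTG, which reads the same on both strands. An entry was matched for 34 of the 40 members, and 5 of these (14.7%) held the motif, *Atg3*, *Atg5*, *Atg7*, *Lamp1* and *Ctsd*, where 6.86% of all 27025 genes did. With a T before it or an A after it (TCACGTG on either strand, a subset of the same matches), 4 members (11.8%) and 3.58% of all genes held it. A match is a run of letters and not a shown binding site. The stretches are given for the 3 of these genes that were detected in every library, with the motif in capitals, and *Lamp1* had 4 matches within 76 bases:
*Lamp1*, chr8:13159085-13159160, plus strand: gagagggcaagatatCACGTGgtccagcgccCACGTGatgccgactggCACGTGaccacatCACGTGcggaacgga
*Ctsd*, first match, chr7:142388055-142388077, minus strand: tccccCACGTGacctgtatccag
*Ctsd*, second match, chr7:142387908-142387937, minus strand: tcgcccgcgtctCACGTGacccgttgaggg
*Atg5*, chr10:44268313-44268338, plus strand: cggagcgcttgcCACGTGgtcttggt

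Of the 4 lysosomal genes, 3 were detected in every library. *Lamp1*, a glycoprotein of the lysosomal membrane, had 983, 1150 and 43 counts in the primordial controls, 148, 92 and 6 with DM, 20, 263 and 43 in the primary controls, and 8, 30 and 25 with DM. *Ctsd*, the protease cathepsin D, had 706, 274 and 199 counts in the primordial controls, 1079, 571 and 99 with DM, 59, 95 and 961 in the primary controls, and 56, 351 and 17 with DM. DM and control libraries overlapped for both genes in both stages, and *Ctsd* shares 808 exon bases with *Gm49369* on the same strand. *Rab7*, the small GTPase of late endosomes, had 12629, 25803 and 2307 counts in the primordial controls, 24900, 2281 and 2879 with DM, 4125, 5248 and 33372 in the primary controls, and 5908, 17 and 21 with DM. Per length, *Rab7* had the highest median level but for *Gabarap* of the 40 genes over the 12 libraries (70.4 RPKM, beside 251 RPKM for *Gabarap*), and *Atg3* came next at 10.5 RPKM. The processed pseudogene *Rab7-ps1* shares 11.1% of the 50-base stretches of *Rab7*. *Lamp2*, a further membrane glycoprotein, was detected in 10 libraries.

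DM was compared with control in oocytes from primordial follicles to ask how the members differed with DM in the dormant stage. None of the members passed the test: of 30 tested, 0 had an adjusted p under 0.05 (the quasi-likelihood test of edgeR, Benjamini-Hochberg adjusted over all 6699 genes tested, of which 0.0149% were called), and 0 had an unadjusted p under 0.05, where 2.48% of all genes were higher and 4.85% lower at that threshold. DESeq2 called 0 of the members as well, and 11.1% of the 6011 genes to which it gave an adjusted p. With a log2 fold change above 0 were 14 members and with one below 0 were 16, and the median was -0.13, beside 0.13 over all genes tested. *Atg16l1* was the member without overlap that was higher with DM, by a log2 fold change of 4.14 ± 2.73 (SE, n = 3 and 3, adjusted p = 0.691). *Becn1* and *Atg4b* were lower without overlap. Of the 30 tested members 1 was thus higher and 2 were lower, beside 2.06% and 11.0% of the genes tested. The untested *Atg13* was lower without overlap too, 1 of 40 higher and 3 of 40 lower in all. *Atg13* had 6 counts in both control library 2 and DM library 1, so its groups were apart only after scaling to the library's total. The fold change of *Becn1* was -3.36 ± 2.31 (adjusted p = 0.713).

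The members with the smallest p in primordial follicles were *Atg4c*, *Gabarapl1* and *Wipi2*. *Atg4c* had a log2 fold change of -6.64 ± 3.79 (adjusted p = 0.658), *Gabarapl1* of 3.59 ± 2.06 (adjusted p = 0.658) and *Wipi2* of -5.83 ± 3.59 (adjusted p = 0.67, edgeR). *Ulk1* stood at -1.39 ± 2.32 and *Pik3r4* at 3.02 ± 3.20, with adjusted p of 0.907 and 0.841. Among the 9 genes detected in every library, the values closest to 0 were those of *Gabarap* at -0.52 ± 1.37, *Ambra1* at -0.83 ± 2.07, *Rab7* at -0.21 ± 2.04 and *Atg5* at -0.05 ± 2.29. *Wipi1* was at 1.91 ± 3.03 and *Sqstm1* at -0.25 ± 2.99. *Lamp1* was at -2.73 ± 2.95 and *Ctsd* at 0.87 ± 2.86. The median SE of the tested members was 2.97 on the log2 scale, larger than most of the values named here. Leaving out 1 library changed the sign of 7 of the 15 named members tested here, and for *Atg5* the value went from -8.77 to 9.05, the latter without primordial control library 2. Of the granulosa markers, *Foxl2* had 4197 to 40701 counts in the primordial controls and 61 to 656 with DM, while *Wt1* had 232 to 29956 and 188 to 67327 and *Krt18* 0 to 9 and 2 to 1163. The summed level of the oocyte markers was 32.2 to 1280 CPM in controls and 7.46 to 1080 CPM with DM, of the granulosa markers 823 to 2490 and 13.1 to 2080 CPM, and of the stroma and theca markers 2550 to 3480 and 1640 to 3870 CPM. The part of these cells in the levels above was not tested.

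**Figure D4:**
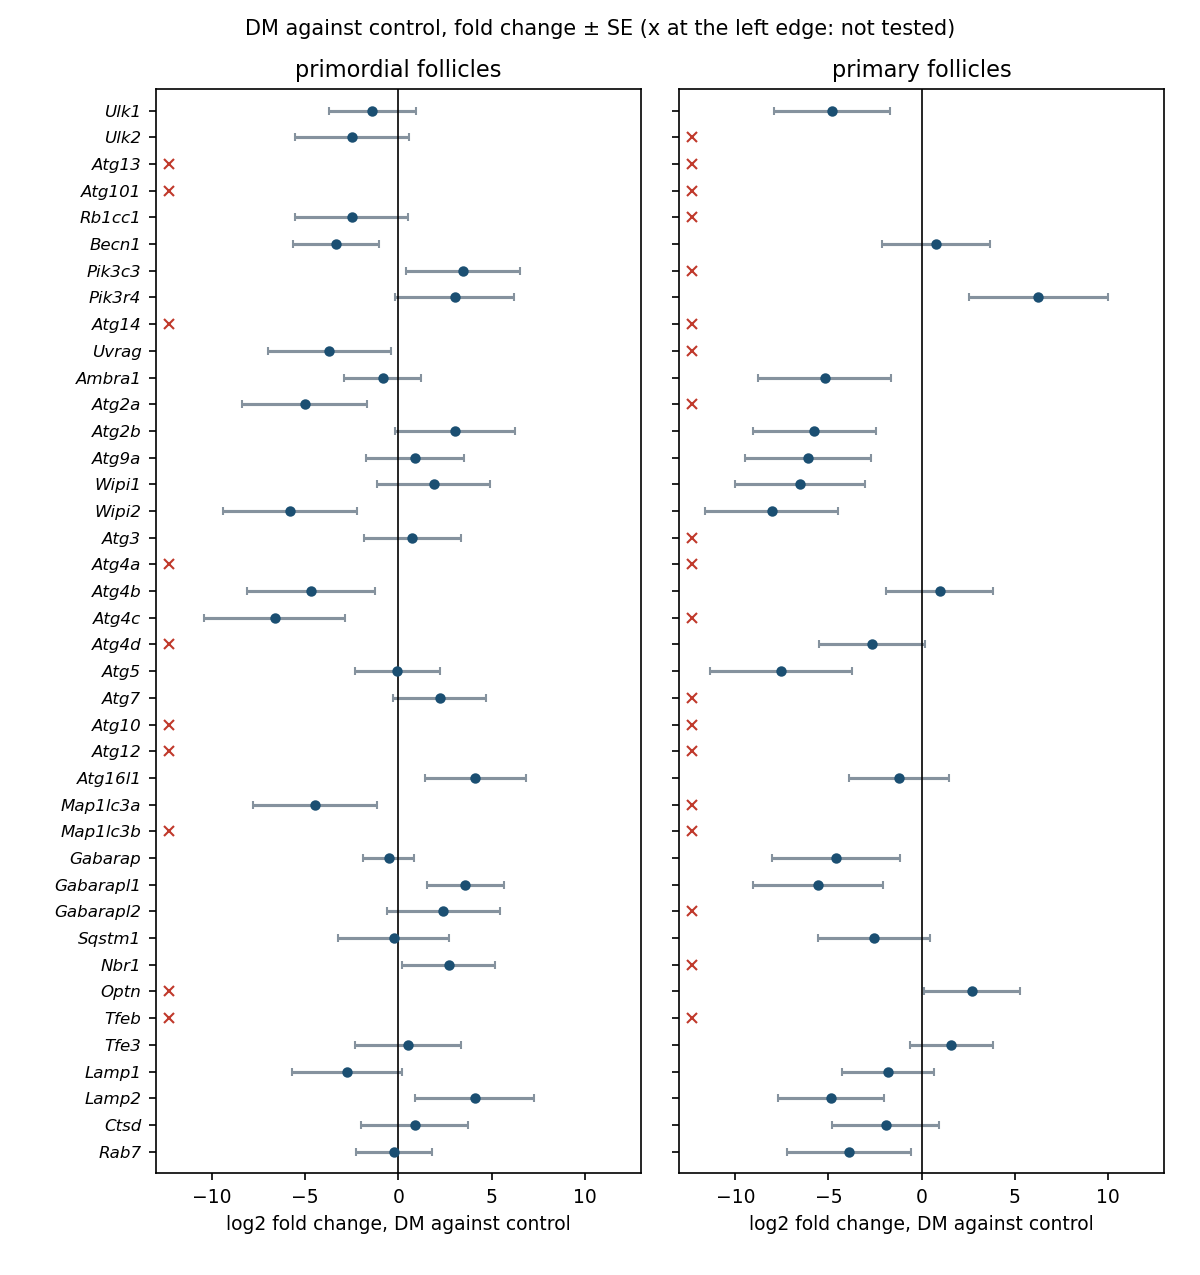
Log2 fold change of DM against control (horizontal axis) with its standard error (bars) for each of the 40 members, in primordial (left, 30 tested) and primary follicles (right, 21 tested), 3 libraries against 3; a cross at the left edge marks a member that the filter on low counts removed. No point passes the adjusted threshold. Points below 0 number 16 of 30 and 16 of 21, but the filter kept members through the group that carried them high, and without it 21 of 40 and 24 of 39 were below 0.

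The same comparison in oocytes from primary follicles asked about the growing stage, and there most of the autophagy genes tested had a log2 fold change below 0 with DM, although none passed the test. Of 21 tested members 0 had an adjusted p under 0.05, as did 0.0% of the 4181 genes tested. At an unadjusted p under 0.05, 0 were higher and 2 lower, *Wipi2* and *Atg5*, where 4.04% of all genes were higher and 8.11% lower. The log2 fold change was above 0 in 5 members and below 0 in 16, with a median of -3.90 beside 0.31 over all genes tested. The filter kept the members that a group carried high, so these counts hold for the tested members alone. In the fit without the filter, 15 of 39 members were above 0 and 24 below, with a median of -1.85 beside -1.34 over 14026 genes. Without primary control library 1 the median of the tested members was -1.39 and without primary control library 3 it was -1.53. DM and control did not overlap in 6 of the 21 tested members, all lower with DM (*Ulk1*, *Wipi1*, *Wipi2*, *Atg5*, *Gabarap* and *Lamp2*). Of the genes tested, 1.27% were higher and 11.8% lower without overlap. The untested *Map1lc3a* and *Nbr1* were lower without overlap too, 0 of 40 higher and 8 of 40 lower in all. *Atg5* had 11 counts in both control library 3 and DM library 3, so its groups were apart only after scaling to the library's total. The same holds for *Gabarap*, with 3257 counts in control library 2 and 4208 in DM library 1. *Map1lc3a* had 3 counts in control library 2, which is not detected.

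*Wipi2* had the smallest p of the members in primary follicles, with a log2 fold change of -8.05 ± 3.57 (adjusted p = 0.395, edgeR). Its 3 DM libraries held 3 counts in all against 2425 in the controls, a pooled level 1070 times lower with a 95% counting interval of 367 to 5210, which leaves out the spread between libraries. *Atg5* followed with -7.56 ± 3.81 (adjusted p = 0.396) and *Wipi1* with -6.53 ± 3.49 (adjusted p = 0.396). *Ulk1* was at -4.81 ± 3.10 (adjusted p = 0.428) and *Gabarap* at -4.60 ± 3.41 (adjusted p = 0.483). *Gabarapl1* was at -5.57 ± 3.47, *Ambra1* at -5.21 ± 3.56, *Rab7* at -3.90 ± 3.33 and *Sqstm1* at -2.58 ± 3.00. The lysosomal *Lamp1* and *Ctsd* were at -1.82 ± 2.48 and -1.93 ± 2.86. *Atg16l1* was at -1.21 ± 2.67. Above 0 stood *Pik3r4* at 6.25 ± 3.73, a value of -4.53 without primary DM library 2, and *Becn1* at 0.76 ± 2.90. By step, 0 tested members were above 0 and 1 below in initiation, 2 and 1 in nucleation, 0 and 4 in membrane supply and PI3P binding, 1 and 3 in conjugation, 0 and 2 among the LC3 and GABARAP genes, 1 and 1 among the receptors, 1 and 0 among the transcription factors and 0 and 4 in the lysosome, beside 2198 and 1983 of all genes tested. These counts by step hold only for members that passed the filter. In the fit without it, the initiation genes *Ulk2*, *Atg13* and *Atg101* were above 0 (8.23, 9.51 and 5.19). *Ulk1* and *Rb1cc1* were below 0 there (-4.59 and -4.26). Leaving out 1 library changed the sign of 5 of the 14 named members tested in primary follicles.

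With DESeq2 in place of edgeR, 14.1% of 4225 genes and 2 of the 16 members given an adjusted p were called in primary follicles, *Wipi2* lower and *Atg12* higher. The adjusted p of *Wipi2* was 0.0441 there and 0.0441 to 0.999 over all alternatives. *Atg12*, a ubiquitin-like protein of the conjugation system, had 0, 2 and 0 counts in the primary controls and 104, 0 and 22 with DM, and it did not pass the filter of edgeR. Of the granulosa markers, *Foxl2* had 4084 to 474295 counts in the primary DM libraries and 135 to 226837 in the primary controls, *Wt1* had 3688 to 23941 and 28 to 134153, and 6 to 10 oocyte markers were detected with DM against 9 to 13 in the controls. The genes detected numbered 4670 to 5314 with DM and 4206 to 7839 in the primary controls. The summed level of the oocyte markers was 13.9 to 1410 CPM in primary controls and 56.6 to 1120 CPM with DM, of the granulosa markers 822 to 7450 and 387 to 11200 CPM, and of the stroma and theca markers 2280 to 6490 and 2180 to 12500 CPM. The part of these differences in the levels of the autophagy genes was not tested.

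Whether the DM difference itself differed between the stages was tested by the interaction over all 12 libraries. Of 38 members tested 0 passed the adjusted threshold, as did 0.0% of 8500 genes, and at an unadjusted p under 0.05 there were 3 members with a positive and 4 with a negative interaction, beside 9.11% and 9.78% of all genes. The 3 positive were *Ulk2*, *Atg13* and *Atg14*, and the 4 negative were *Pik3c3*, *Atg7*, *Map1lc3b* and *Gabarapl1*. *Atg13*, named after its value was seen, had the largest interaction of these, 18.81 ± 5.58 on the log2 scale (adjusted p = 0.0974, edgeR), and no gene of the 8500 had a smaller adjusted p. Its counts were 14261, 6 and 30 in the primordial controls, 6, 2 and 2 with DM, 7, 5 and 3 in the primary controls, and 1, 5963 and 3 with DM, so the high counts stood in primordial control library 1 and primary DM library 2. *Map1lc3b* had an interaction of -11.68 ± 4.97 (adjusted p = 0.192), with its high count in primordial DM library 3. DESeq2 called 0 members and 10.9% of genes for the interaction.

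Primary and primordial follicles were compared under each treatment to follow the members through follicle activation. These comparisons share their libraries with those of DM and control. In controls 0 of 30 members tested and 0.0% of genes passed the adjusted threshold, and at an unadjusted p under 0.05 there were 0 members higher and 3 lower in primary follicles (*Atg13*, *Atg2a* and *Atg4c*), beside 2.99% and 3.45% of all genes. After DM 0 of 23 members and 0.0% of genes passed, with 0 members higher and 7 lower in primary follicles at an unadjusted p under 0.05 (*Pik3c3*, *Atg2b*, *Atg9a*, *Wipi1*, *Atg5*, *Gabarapl1* and *Nbr1*), beside 5.54% and 11.7% of all genes. The median log2 fold change of the members was -0.74 in controls and -2.92 after DM, where all genes had -0.31 and 0.35. The filter kept the members that a group carried high, so these counts and medians hold for the tested members alone. Without the filter the members were at -0.74 and -2.81 and all genes at -0.93 and -1.33. In that fit 16 members were above 0 and 24 below in controls, and 12 above and 28 below after DM. Of the 7 members lower after DM, *Nbr1* had the largest value, -10.07 ± 4.29 (adjusted p = 0.286, edgeR), from 11973, 20 and 12256 counts in primordial DM and 4, 5 and 2 in primary DM libraries. DESeq2 called *Atg101* higher and *Tfe3* lower in primary follicles of controls, 2 of the 22 members given an adjusted p, beside 5.29% of genes. *Atg101* had 3, 3 and 1 counts in the primordial and 1, 803 and 2 in the primary controls. After DM DESeq2 called *Atg4d* higher and *Pik3c3*, *Atg2b*, *Gabarapl1* and *Nbr1* lower in primary follicles, 5 of the 19 members given an adjusted p, beside 20.1% of genes. *Atg4d* had 3, 0 and 0 counts in primordial DM and 179, 2 and 15 in primary DM libraries, and it did not pass the filter of edgeR.

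Beyond the 40 members, 62 further genes of autophagosome formation, fusion, receptors, the lysosomal membrane and proton pump, and the hydrolases were examined. Detected in all 12 libraries were 7 of them, *Vps39*, *Tax1bp1*, *Wdfy3*, *Bnip3l*, *Ctsb*, *Hexa* and *Psap*. In primordial follicles 43 were tested, 0 passed the adjusted threshold, and 1 was higher and 0 lower with DM at an unadjusted p under 0.05, beside 2.48% and 4.85% of all genes. Without overlap, 1 was higher and 7 were lower, beside 2.06% and 11.0%, and DESeq2 called 2, *Tollip* higher and *Fundc1* lower, beside 11.1%. The gene with the smallest p was *Tmem192*, a protein of the lysosomal membrane, with 8, 0 and 0 counts in the controls and 68, 14 and 23 with DM, a log2 fold change of 4.80 ± 2.39 (adjusted p = 0.658). Its DM libraries were all above the controls. In primary follicles 16 were tested, 0 passed the adjusted threshold, and 0 were higher and 2 lower at an unadjusted p under 0.05, *Npc1* and *Ctsa*, beside 4.04% and 8.11% of all genes. Without overlap, 0 of the tested genes were higher and 2 lower, beside 1.27% and 11.8% of all genes tested. Over the whole list, untested genes included, 0 were higher and 7 lower. DESeq2 called 3, *Npc1* and *Ctsa* lower and *Tollip* higher, beside 14.1%. *Npc1*, which exports cholesterol from the lysosome, had 377, 500 and 17 counts in the primary controls and 0 in all 3 DM libraries (adjusted p = 0.395, edgeR). Against a limit of 3 counts over the group, its pooled level was at least 396-fold lower, a bound on counting error that leaves out the spread between libraries. In the primordial controls *Npc1* had 441, 2 and 2 counts. For the primordial and the primary stage, the tested genes of this list had a median log2 fold change of -0.15 and -0.23. Without the filter, the medians of the list were -0.64 and -1.68. In that fit the 40 members had -0.10 and -1.85, and all genes -0.76 and -1.34.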

How the data were processed

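Oocytes were laser-captured from cultured mouse ovaries in 4 groups of 3 libraries. The authors trimmed reads with trim_galore, mapped them to mm10 and deposited featureCounts read counts per gene without normalization. The paper names TopHat2 as the aligner, the submitters' processing notes STAR, and whether counting used strand was not given in the sources used here. Groups came from the sample labels. The column for each library was named after its sample.

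Members, lists and tests were chosen with earlier results of these data known. Each comparison was fitted in edgeR 4.0.16 (R 4.3.3) to the libraries of its groups (filterByExpr, TMM, glmQLFit with a prior count of 0.125, glmQLFTest), with Benjamini-Hochberg adjustment over all genes tested and a threshold of 0.05. The interaction was fitted to 12 libraries. SEs were derived from the fold change and the F statistic. No pair of libraries in a group was within sampling noise (smallest chi-square per degree of freedom 1588), so each was kept. RPKM used GENCODE vM21 exon lengths (GRCm38). Code was tested on simulated counts with far less spread between replicates than these libraries had, so that check does not tell what changes could be found here. Alternatives were DESeq2 1.42.0, its size factors, library size alone, no filter, a prior count of 2, a replicate block, 1 fit of all 12 libraries, unadjusted p, other detection limits (1 of them, 3 counts in the shallowest library, chosen after seeing the data) and leaving out each library. Counts in every library are given for members detected in all 12, those with the 3 smallest p in each DM comparison, and 8 landmarks of the pathway (*Ulk1*, *Becn1*, *Atg5*, *Map1lc3b*, *Sqstm1*, *Tfeb*, *Lamp1* and *Ctsd*). Of the further genes, that with the smallest p in each DM comparison is named. Other genes were named after their values were seen.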

Additional observations from a re-analysis of the deposited data

How the results depend on the processing

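No alternative in edgeR called a member after adjustment. The spread between libraries limits what can be said of the members. The deepest library, primary DM library 2 with 42639326 counts, had 4670 genes and 23 members detected. The shallowest, primary control library 2 with 14034586 counts, had 7354 genes and 28 members. A member at 3 counts or fewer is known only to lie low in that library, and why it did was not tested. No pairing by replicate number was visible (correlations of -0.0377 to 0.0314), though the wide spread between libraries could hide one. The replicate block called 0 genes and 0 members in both comparisons of DM with control and changed no other call. Under TMM, DESeq2's size factors and library size alone, the median of all genes was 0.13, 0.56 and -0.43 in primordial and 0.31, 2.04 and -0.96 in primary follicles. Relative to it, the median of the tested members was -0.26, -0.56 and 0.22 in primordial and -4.21, -4.86 and -2.84 in primary follicles, for members that passed the filter alone. Without the filter, members and all genes had medians of -0.10 and -0.76 in primordial and -1.85 and -1.34 in primary follicles.

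Genes called for DM in primordial follicles numbered 1, and 491 at an unadjusted p, 665 with DESeq2, 0 with DESeq2's size factors, library size alone, no filter, the replicate block or all 12 libraries in 1 fit, and 0 to 3 with 1 library left out (3 without primordial DM library 1). For DM in primary follicles they went from 0 to 508 and 594 (members 2 and 2) at an unadjusted p and with DESeq2. Between the stages they went to 433 and 280 in controls (members 3 and 2, and 1 gene with library size alone), and to 746 and 932 after DM (members 7 and 5), where leaving out 1 library gave 0 to 4 genes (4 without primary DM library 2). For the interaction they went to 1605 and 582, with 7 members at an unadjusted p. The median of the members in primordial follicles was -2.15 to 0.36 with 1 library left out. In primary follicles it was -0.49 with DESeq2, over all members given a fold change there and not the 21 tested members alone. In the fit of all 12 libraries, whose filter kept 38 members, it was -1.53. With 1 library left out, each fit with its own filter, it was -4.69 to -1.39. These medians are thus not over the same members. With over 10 counts as the limit 3 members were detected in all 12 libraries, and with at least 1 CPM 1 was.

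Signs turned in primordial follicles for *Wipi1* with the replicate block (-1.07), *Atg5* with library size alone (0.05) and *Rab7* with DESeq2 (0.11) and its size factors (0.12). In primary follicles they turned for *Becn1* with library size alone (-0.63) and the replicate block (-2.50), *Atg16l1* with DESeq2 (1.40) and its size factors (1.07), and *Ctsd* with the replicate block (0.44). The causes were not tested. With 1 library left out, values in primordial follicles ran from -3.05 to 0.85 for *Ulk1*, -3.18 to 5.71 for *Pik3r4*, -6.36 to 3.14 for *Wipi1*, -8.77 to 9.05 for *Atg5*, -2.04 to 0.93 for *Gabarap*, -2.51 to 0.32 for *Sqstm1* and -1.45 to 1.03 for *Rab7*. In primary follicles they ran from -6.83 to 3.99 for *Becn1*, -4.53 to 7.57 for *Pik3r4*, -4.79 to 1.96 for *Atg16l1*, -6.16 to 0.80 for *Gabarapl1* and -4.42 to 2.35 for *Ctsd*.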
